A study of Mus musculus with 24 samples.

Results

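The *Serpina3* genes are a tandem family of serpins, and 6 of them (*Serpina3c*, *Serpina3f*, *Serpina3g*, *Serpina3h*, *Serpina3i* and *Serpina3n*) were followed here in control lungs and in lungs that lost *Vangl2* or *Ror2* in the epithelium. The members were found by their exact symbols, and all 6 were among the 23420 genes of each table. Serpins are protease inhibitors that trap their target when it cuts an exposed stretch near the end of the protein, the reactive centre loop. Mice carry many copies of the family where humans have the gene *SERPINA3*, which encodes alpha-1-antichymotrypsin, an acute phase protein released into plasma. In mouse tissues, *Serpina3n* is best known as a gene of reactive and inflamed states, and its transcription is driven by inflammatory cytokines and by glucocorticoids.

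RNA was taken from the whole left lobe of 24 mouse lungs in 8 groups of 3, at postnatal day 2 (P2) and postnatal day 5 (P5). The mutants carried Sox9Cre/+ with either Vangl2f/f or Ror2f/f, which removes a core component of planar cell polarity or a *Wnt5a* receptor from distal lung epithelium where the *Sox9* locus drives Cre. Each mutant and age had its own control group, entered as WT, named Control(Vangl1/2) or Control(Ror2), and sequenced in the same table. The titles and the genotype entries disagree for the P5 *Vangl2* mutants, entered as Ror2f/f, and for the P2 *Ror2* mutants, entered as Vangl2f/f, and the titles were followed. Since the lobes were sequenced whole, more cells of a type and more RNA per cell cannot be told apart, and mesenchyme, vessels and blood contribute to every value.

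Values are given as normalized counts, the reads on a gene after division by the size factor of the lung. Between 13823693 and 21546673 reads fell on genes in a lung. Control replicate 1 of the P5 *Ror2* comparison stood apart, with 48.7% of all genes at 0 against 22.2% to 26.3% in the other 23 lungs, although on chromosome 12, which holds the family, 21.3% to 25.2% of genes were at 0 in the 24 lungs. On 5 other chromosomes over 90% of genes were at 0 in that control. *Vangl2* itself had 369, 314 and 292 normalized counts in P5 control lungs and 169.5, 148 and 166 in P5 *Vangl2* mutants (log2 fold change -1.0, SE 0.18, limma adjusted p = 0.0604, blocked by replicate number 0.0194). At P2, the *Vangl2* controls had 249, 302 and 281 and the mutants 241, 224 and 173 (log2 fold change -0.39, SE 0.18, limma adjusted p = 0.241). In both *Vangl2* comparisons the highest mutant was below the lowest control (exact two-sided permutation test, p = 0.1, the smallest that 3 against 3 can give). *Ror2* was at 451, 581 and 519.8 in the P2 *Ror2* controls and at 479, 349 and 366 in the mutants (log2 fold change -0.38, SE 0.16, limma adjusted p = 0.25). At P5 it was at 526, 368 and 597 in controls and at 362, 439.7 and 521 in mutants, so these groups overlapped and the loss of *Ror2* was not detectable in whole lobes (log2 fold change -0.16, SE 0.24, limma adjusted p = 0.69). In the lungs whose labels disagree, *Ror2* did not pass in the P5 *Vangl2* mutants (log2 fold change -0.48, limma adjusted p = 0.348), and neither did *Vangl2* in the P2 *Ror2* mutants (-0.21, limma adjusted p = 0.404). *Xist*, which marks female lungs, lay between 11858.5 and 31655 in 11 lungs and between 5.22 and 283 in 12, leaving out the P5 *Ror2* control with missing reads, and in no table did it separate all controls from all mutants.

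All 6 genes lie within a stretch of chromosome 12 (GRCm38, the same build as mm10). *Serpina3c* is on the minus strand at chr12:104146382-104153870. The others are on the plus strand, with *Serpina3f* at chr12:104214544-104221129, *Serpina3g* at chr12:104236245-104241939, *Serpina3h* at chr12:104247905-104253669, *Serpina3i* at chr12:104263122-104269372 and *Serpina3n* at chr12:104406729-104414329. GENCODE annotates 5 of the 6 as protein coding and *Serpina3h* as a transcribed unprocessed pseudogene. The longest transcripts were 72.8% (Serpina3c and Serpina3f) to 87.0% (Serpina3f and Serpina3g) identical in pairwise alignments. Of the stretches of 50 bases in the transcripts of a member, 4.25% in *Serpina3c*, 6.9% in *Serpina3n*, 10.7% in *Serpina3f*, 15.4% in *Serpina3i*, 16.0% in *Serpina3g* and 24.4% in *Serpina3h* also occurred in another gene. For stretches of 100 bases the share was 0% in *Serpina3c* and at most 4.64%, in *Serpina3g*. The read length and the treatment of reads with several matches are not given in the sources used here, so the split of reads among *Serpina3f*, *Serpina3g*, *Serpina3h* and *Serpina3i* is less certain than the levels of *Serpina3c* and *Serpina3n*, and the sum over the 6 genes is given beside each comparison.

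The windows of 250 bases upstream of each RefSeq start (GRCm38.p6) are shown for 5 members. By identity and by exact matches to 2 short forms they fall into 2 kinds. Each is printed 5′ to 3′ on the strand of its gene. Capitals mark TTCNNNGAA, the spaced pair bound by STAT factors, and GGGNNNTCC, a short form that only some NF-kB sites fit, searched on both strands, and where capitals are absent neither was matched.
Serpina3n, chr12:104406458-104406707, plus strand: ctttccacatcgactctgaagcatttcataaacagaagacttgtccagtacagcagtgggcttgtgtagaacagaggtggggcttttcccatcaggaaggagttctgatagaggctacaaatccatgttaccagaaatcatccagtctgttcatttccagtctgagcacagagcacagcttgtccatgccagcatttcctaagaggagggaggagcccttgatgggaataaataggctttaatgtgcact
Serpina3c, chr12:104153873-104154122, minus strand: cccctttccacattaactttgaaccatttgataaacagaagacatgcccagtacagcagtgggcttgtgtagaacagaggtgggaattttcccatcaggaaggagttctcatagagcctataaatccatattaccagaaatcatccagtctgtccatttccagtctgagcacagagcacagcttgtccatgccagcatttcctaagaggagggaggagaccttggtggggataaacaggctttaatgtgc
Serpina3f, chr12:104214294-104214543, plus strand: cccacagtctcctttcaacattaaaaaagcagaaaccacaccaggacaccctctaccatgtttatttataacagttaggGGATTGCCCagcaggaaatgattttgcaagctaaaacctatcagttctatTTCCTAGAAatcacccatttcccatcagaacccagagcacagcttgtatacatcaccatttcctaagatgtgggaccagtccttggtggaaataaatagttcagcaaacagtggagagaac
Serpina3g, chr12:104235897-104236146, plus strand: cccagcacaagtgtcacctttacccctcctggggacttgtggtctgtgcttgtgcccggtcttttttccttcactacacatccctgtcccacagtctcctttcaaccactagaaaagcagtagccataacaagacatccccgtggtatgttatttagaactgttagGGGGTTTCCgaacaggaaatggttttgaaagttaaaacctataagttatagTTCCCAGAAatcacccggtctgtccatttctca
Serpina3i, chr12:104262872-104263121, plus strand: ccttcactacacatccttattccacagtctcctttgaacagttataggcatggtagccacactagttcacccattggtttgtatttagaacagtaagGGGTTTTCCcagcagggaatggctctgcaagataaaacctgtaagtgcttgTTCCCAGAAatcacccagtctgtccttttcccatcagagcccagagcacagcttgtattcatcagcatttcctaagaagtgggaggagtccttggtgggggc
The windows of *Serpina3c* and *Serpina3n* were 92.7% identical over 247 aligned bases, although the genes lie on opposite strands at either end of the 6, and the other 9 pairs were between 64.0% and 78.2% identical over 164 to 264 aligned bases. *Serpina3f*, *Serpina3g* and *Serpina3i* each held 1 match to TTCNNNGAA and 1 to GGGNNNTCC, 50 or 51 bases apart, and *Serpina3c* and *Serpina3n* held neither. The search took exact matches of these lengths, so a longer site or 1 with a changed base would not be counted. *Serpina3c* holds gggaattttccc and *Serpina3n* ggggcttttccc, with more bases between GGG and TCC than that form allows. Whether these windows hold an NF-kB site was therefore not settled by this search. Among 27025 mouse promoters, 7.18% of windows of this length held TTCNNNGAA and 15.0% held GGGNNNTCC. ACANNNTGT, a loose form of the glucocorticoid receptor site, was matched in 4 of the 5 windows, all but that of *Serpina3g*, and in 5.91% of all promoters. In *Serpina3g* TTCNNNGAA began 33 bases before the RefSeq start, against 121 in *Serpina3f* and 102 in *Serpina3i*. The *Serpina3g* window ends at chr12:104236146, upstream of the GENCODE start at chr12:104236245, whereas those of *Serpina3f* and *Serpina3i* end right before theirs. These distances and the lack of ACANNNTGT in *Serpina3g* thus depend on the start used. A match as far past TTCNNNGAA as theirs would lie outside the *Serpina3g* window, so that stretch was not searched. The 4 matches lie in related sequence and are not independent. *Serpina3f* alone matched TTGCNNAA, a C/EBP form held by 9.55% of promoters, and GAAANNGAA, an interferon-stimulated form held by 7.16%. The stricter TTCCNGGAA (0.914% of promoters) and GGAANTTCC (0.844%) were matched in 0 of the 5.

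The part of the transcript that encodes the reactive centre loop is where serpins of this family differ most, and it sets which protease is caught. The coding stretch from the conserved hinge to the strand after the loop is given here for *Serpina3n* and the 3 other members with the most reads, from GENCODE transcripts. Capitals mark bases that did not match *Serpina3n* in the pairwise alignment.
Serpina3n: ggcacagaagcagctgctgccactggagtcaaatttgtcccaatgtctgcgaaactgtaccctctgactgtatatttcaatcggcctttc
Serpina3c: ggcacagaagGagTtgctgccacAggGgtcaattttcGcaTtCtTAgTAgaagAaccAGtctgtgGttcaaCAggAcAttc
Serpina3f: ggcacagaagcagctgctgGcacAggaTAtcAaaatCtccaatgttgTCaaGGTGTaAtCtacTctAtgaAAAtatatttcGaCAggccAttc
Serpina3g: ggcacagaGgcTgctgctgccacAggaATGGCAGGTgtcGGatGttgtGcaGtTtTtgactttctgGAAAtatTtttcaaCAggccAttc
Across this stretch *Serpina3c* was 67.4%, *Serpina3f* 71.1% and *Serpina3g* 63% identical to *Serpina3n*. *Serpina3c* and *Serpina3n* had the most similar upstream windows among the 10 pairs with a window but were less alike in this stretch, whereas *Serpina3h* and *Serpina3i* had the most similar loops, at 91.2%.

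In P2 lungs without epithelial *Vangl2* the family was higher in every mutant lung. The summed normalized counts of the 6 genes were 426, 209 and 228 in the controls and 6258, 861 and 3130.2 in the mutants, so that the group means differed 11.9-fold. The log2 ratio of the means was 3.57, and from 2.80 to 4.03 without 1 lung. Summed without *Serpina3n*, the means differed 5.78-fold. *Serpina3g*, *Serpina3h* and *Serpina3n* rose by limma, 3 of the 6 members, beside 1.5% of the 17448 genes tested that were called higher. No member (0 of 6) was called lower, beside 2.09% of all genes. In 5 of the 6 members no mutant lung overlapped the controls, beside 14.6% of all genes that were higher without overlap. The median log2 fold change of the members was 2.62, and that of all genes tested 0.00.

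*Serpina3n*, which encodes a secreted inhibitor of granzyme B and of neutrophil proteases, was at 28.4, 49.3 and 33.5 normalized counts in the P2 *Vangl2* controls and at 5004, 348 and 556 in the mutants. The 3 mutant lungs lay far above the controls, and mutant replicate 1 stood well above the other mutants. The log2 fold change was 4.74 (SE 0.87, limma adjusted p = 0.0337). Without mutant replicate 1 the limma estimate was 3.57 (limma adjusted p = 0.0173).

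*Serpina3g*, also known as Spi2A and studied as an inhibitor of cathepsins in leukocytes, was at 144, 80.6 and 97.7 in these controls and at 698, 327 and 2028 in the mutants. Here mutant replicate 3, not replicate 1, was the highest lung, and the groups did not overlap. The log2 fold change was 2.88 (SE 0.58, limma adjusted p = 0.0413).

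*Serpina3h*, the annotated pseudogene, was at 6.32, 10.4 and 3.83 in controls and at 61.0, 28.5 and 71.3 in mutants. Its counts were low but did not overlap, with a log2 fold change of 2.78 (SE 0.48, limma adjusted p = 0.0326). *Serpina3i* was at 1.05, 4.74 and 7.66 in controls and at 15.5, 15.7 and 59.1 in mutants. The lowest mutant lung was above the highest control, and the log2 fold change of 2.45 (SE 0.70) did not pass after adjustment (limma adjusted p = 0.1).

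*Serpina3c*, first described as a kallikrein-binding protein, was at 63.2, 59.7 and 79.5 in controls and at 352, 117 and 121 in mutants. Its highest lung was mutant replicate 1, the same as for *Serpina3n*, and its log2 fold change of 1.34 (SE 0.42, limma adjusted p = 0.12) was the smallest of the family. *Serpina3f* was at 182, 3.79 and 5.75 in controls and at 128, 24.6 and 294 in mutants. It was the member whose groups overlapped at P2, because control replicate 1 was higher than 2 of the mutants (log2 fold change 2.45, SE 1.42, limma adjusted p = 0.348). Without that control the log2 fold change was 4.12 (limma adjusted p = 0.101, with a range of 0.101 to 0.698 over all alternatives).

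The leading gene of the family differed between the mutant lungs. In mutant replicate 1, *Serpina3n* took 79.95% of the reads on the 6 genes (95% Wilson interval 78.9% to 80.9%, counting error only), whereas in mutant replicate 3 *Serpina3g* took 64.8% (63.1% to 66.5%), and in mutant replicate 2 the intervals of *Serpina3n* (37.2% to 43.7%) and *Serpina3g* (34.9% to 41.3%) overlapped. In each control the intervals of the leading gene and the next overlapped, which is not a test of their difference. *Serpina3g* was at 38.6% (32.4% to 45.2%) and 42.9% (36.7% to 49.2%) in control replicates 2 and 3, where *Serpina3c* was at 28.6% (23.1% to 34.9%) and 34.9% (29.1% to 41.1%), and in control replicate 1 *Serpina3f* was at 42.8% (38.1% to 47.7%) and *Serpina3g* at 33.9% (29.5% to 38.7%). Per kilobase of the longest transcript, mean levels in controls ran from 59.6 ± 18.3 (SD, n = 3) for *Serpina3g* and 30.5 ± 4.77 for *Serpina3c* through 28.4 ± 45.6 for *Serpina3f* and 17.97 ± 5.28 for *Serpina3n* to 5.54 ± 2.69 for *Serpina3h* and 2.04 ± 1.51 for *Serpina3i*. In the mutants *Serpina3n* was first, at 954 ± 1274, followed by *Serpina3g* at 564 ± 496, *Serpina3c* at 89.0 ± 60.9, *Serpina3f* at 66.3 ± 60.5, *Serpina3h* at 43.3 ± 18.02 and *Serpina3i* at 13.7 ± 11.4. The spread between lungs was larger than the gap between *Serpina3n* and *Serpina3g* in mutants.

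**Figure D1:**
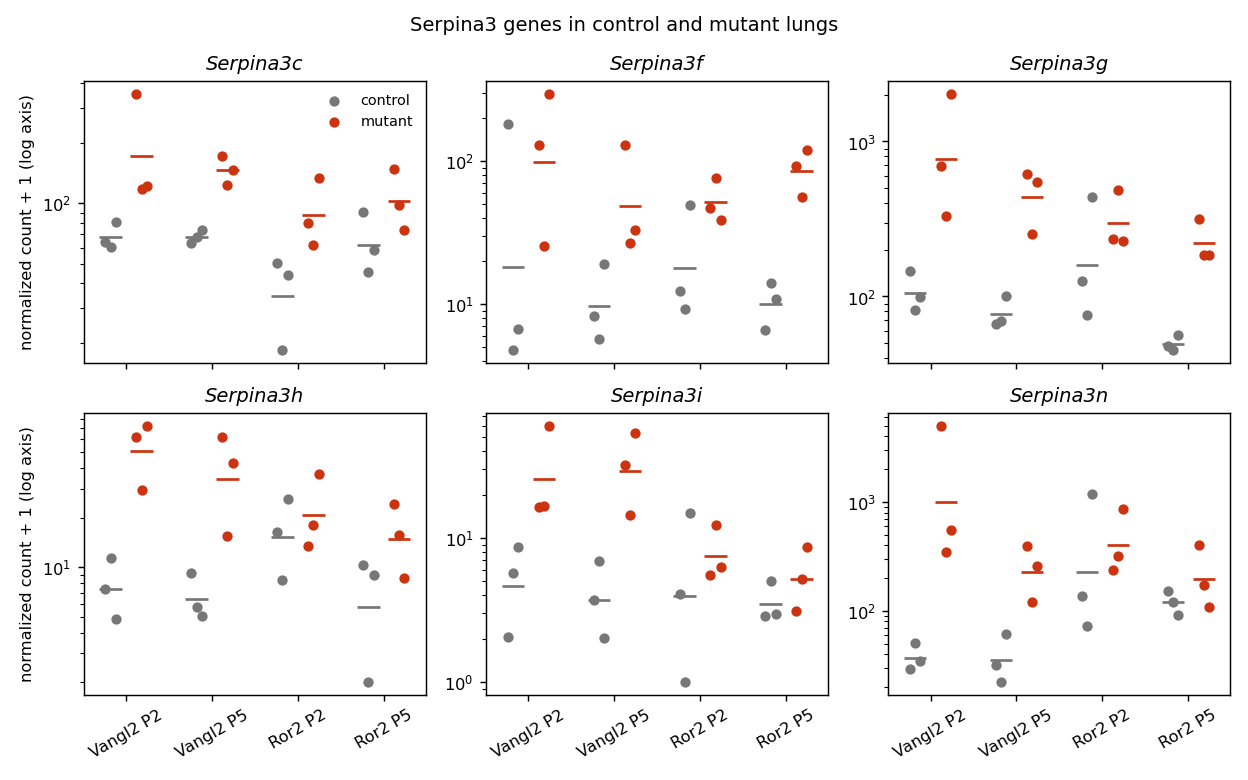
Normalized count plus 1 of each Serpina3 gene (log axis, a different scale in each panel) in the 3 control lungs (grey) and 3 mutant lungs (red) of each comparison, with bars at the geometric means. At P2 the Vangl2 mutants do not overlap their controls for any member except Serpina3f, and Serpina3n reaches 5004 in 1 mutant lung.

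With 3 lungs a group these calls rest on few samples. Without any 1 of the 3 controls, or without mutant replicate 2, no member passed (0 of 6), without mutant replicate 1 only *Serpina3n* did, and without mutant replicate 3 *Serpina3g*, *Serpina3h* and *Serpina3n* passed. In these fits the log2 fold change ran from 2.18 to 3.50 for *Serpina3g* (limma adjusted p from 0.0153 to 0.189), from 2.48 to 3.18 for *Serpina3h* (0.0263 to 0.162) and from 3.57 to 5.49 for *Serpina3n* (0.0173 to 0.168). Across all genes tested, leaving out a control likewise left between 1 and 35 genes called higher, against 262 with all 6 lungs. edgeR's quasi-likelihood test on recovered reads also called 3 members, beside 259 of 17448 genes called higher. DESeq2 called 5 (all but Serpina3f), beside 1081 of 15391 genes called higher. Limma over the 12 lungs of both P2 tables called 0, with 0.0559 as the lowest adjusted p. Among the P2 lungs with low *Xist*, *Serpina3n* was at 49.3 and 33.5 in controls and 5004 in the mutant, and among those with high *Xist* at 28.4 in the control and at 348 and 556 in mutants.

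At P5 the *Vangl2* mutants again had more of every member. The family sum was 177, 172 and 256 in controls and 1401, 547 and 1076 in mutants, a 5.00-fold difference of the means. In all 6 members the mutant lungs lay above the control lungs without overlap, beside 13.2% of the 17410 genes tested. *Serpina3g* rose by limma, 1 of the 6, beside 0.534% of all genes called higher, and none (0 of 6) was called lower, beside 0.0287% of all genes. At this age lungs of the same replicate number deviated together across genes, and in a fit blocked by that number *Serpina3c*, *Serpina3g*, *Serpina3h*, *Serpina3i* and *Serpina3n* passed, 5 of the 6, beside 5.47% of all genes. No label pairs the lungs by number, and the block was chosen from these same values. The median log2 fold change was 2.47 for the members and 0.00 for all genes tested.

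*Serpina3g* was at 65.7, 68.2 and 99.8 normalized counts in the P5 *Vangl2* controls and at 617, 252 and 548 in the mutants. Even the lowest mutant lung, replicate 2, was well above the highest control. The log2 fold change was 2.51 (SE 0.36, limma adjusted p = 0.0316, blocked adjusted p = 0.009).
*Serpina3n* was at 31.0, 21.2 and 60.5 in controls and at 392, 119 and 256 in mutants, so that mutant replicate 1 was again highest. Its log2 fold change was 2.70 (SE 0.51, limma adjusted p = 0.0652, blocked adjusted p = 0.011).

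*Serpina3i*, the member with the fewest reads, had 2.74, 5.88 and 1.01 in controls and 31.2, 13.4 and 52.7 in mutants, and the largest estimate at this age (log2 fold change 2.97, SE 0.65, limma adjusted p = 0.0881, blocked adjusted p = 0.0459). *Serpina3h* was at 8.21, 4.70 and 4.03 in controls and at 60.5, 14.5 and 42.0 in mutants (log2 fold change 2.43, SE 0.57, limma adjusted p = 0.0989, blocked adjusted p = 0.0288). In both genes mutant replicate 2 was the mutant closest to the controls.

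*Serpina3c* was at 62.0, 67.0 and 72.6 in controls and at 171, 123 and 146 in mutants. The control spread was small, and the log2 fold change was 1.10 (SE 0.24, limma adjusted p = 0.0841, blocked adjusted p = 0.0345). *Serpina3f* was at 7.30, 4.70 and 18.1 in controls and at 129, 25.7 and 32.2 in mutants. It passed neither fit (log2 fold change 2.33, SE 0.70, limma adjusted p = 0.143, blocked adjusted p = 0.0559).

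Per kilobase, *Serpina3g* was first both in P5 *Vangl2* controls, at 43.2 ± 10.5 (SD, n = 3), and in mutants, at 262 ± 108. *Serpina3c* was next in controls, at 30.4 ± 2.38 against 18.2 ± 9.91 for *Serpina3n*, and the order of these 2 was turned in mutants, at 66.3 ± 10.9 and 124 ± 66.3. The call for *Serpina3g* was lost without any 1 of the controls and without mutant replicate 1 or 3, and was kept without mutant replicate 2, with log2 fold changes from 2.27 to 2.91 and adjusted p from 0.0351 to 0.138 (limma). DESeq2 on recovered reads called all 6, beside 842 of 14930 genes called higher. edgeR called 1, beside 67 of 17410 genes called higher. Mutant replicate 1, which had the highest family sum, was the lung of this comparison with low *Xist* (19.2, against 19969 to 31655 in the other 5), and without it the log2 ratio of the family means was 2.01, against 2.32 with it.

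**Figure D2:**
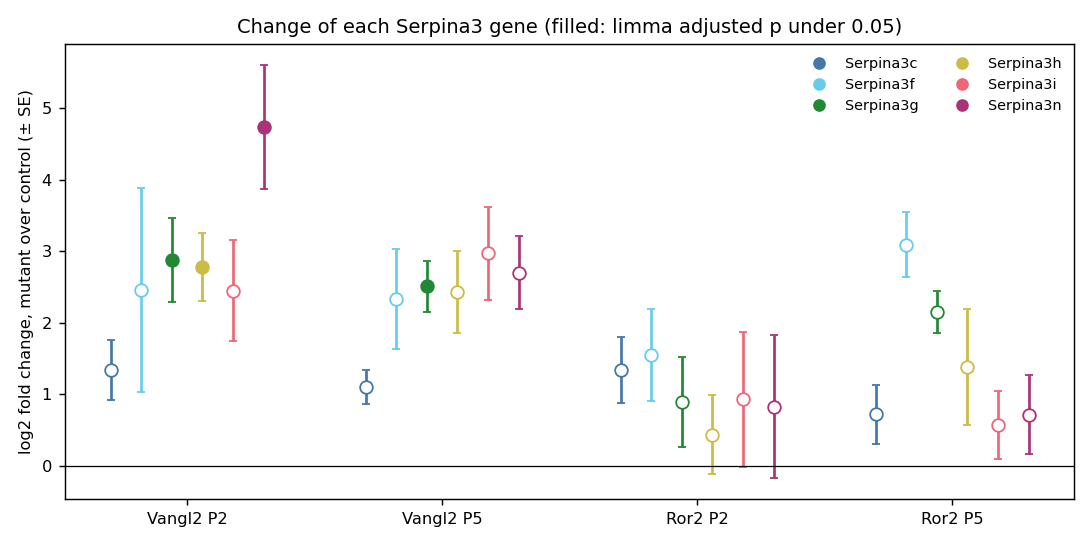
Log2 fold change of each Serpina3 gene, mutant over control, with its standard error from limma, in the 4 comparisons, with filled points for adjusted p under 0.05. Estimates in the Vangl2 mutants lie between 1.10 and 4.74, and in the Ror2 mutants between 0.43 and 3.09.

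In P2 lungs without epithelial *Ror2* the family did not separate from its controls. The summed normalized counts were 341, 179 and 1738 in controls and 613, 972 and 1297 in mutants. Control replicate 3 was the highest of the 6 lungs. By limma 0 of the 6 members passed in either direction (0% of the 17541 genes tested passed). At an unadjusted p under 0.05 there were 2 (Serpina3c and Serpina3f), beside 3380 of the 17541 genes. edgeR called 0 members, beside 0 of all genes. DESeq2 also called 0 members, beside 473 genes higher and 321 lower of 13794, and gave no adjusted p for *Serpina3h* and *Serpina3i*. Only *Serpina3c* did not overlap between the groups, 1 of the 6, beside 13.4% of all genes that were higher without overlap.

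*Serpina3n* was at 137, 71.7 and 1172 normalized counts in the P2 *Ror2* controls and at 237, 320.5 and 857 in the mutants (log2 fold change 0.83, SE 1.00, limma adjusted p = 0.661). *Serpina3g* was at 125, 74.4 and 436 in controls and at 234, 486 and 228 in mutants (log2 fold change 0.89, SE 0.63, limma adjusted p = 0.449). In both genes the third control was inside or above the range of the mutants and the other 2 controls were below it.
*Serpina3c* was at 49.5, 17.5 and 42.9 in controls and at 78.9, 60.7 and 133 in mutants (log2 fold change 1.34, SE 0.46, limma adjusted p = 0.215), with control replicate 3 in the range of the other controls. *Serpina3f*, at 11.3, 8.27 and 48.4 against 46.2, 75.9 and 37.8, overlapped by that control (log2 fold change 1.55, SE 0.64, limma adjusted p = 0.252). *Serpina3h*, at 15.5, 7.35 and 25.2 against 12.4, 17.1 and 35.7, and *Serpina3i*, at 3.09, 0 and 14.0 against 4.51, 11.4 and 5.25, overlapped too, with log2 fold changes of 0.43 (SE 0.55) and 0.93 (SE 0.95).

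Without control replicate 3 the family sum moved from a log2 ratio of 0.35 to 1.88, and the log2 fold changes were 2.01 for *Serpina3n*, 1.61 for *Serpina3g* and 2.28 for *Serpina3f*, with 0 of 6 members passing (limma adjusted p from 0.275 to 0.463). Without control replicate 2 the ratio of the sums turned to -0.11. The neutrophil markers summed to 32088 normalized counts in control replicate 3, against 6060 to 10022 in the other 5 lungs, and their part in the result was not tested.

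At P5 *Serpina3f* and *Serpina3g* were higher without overlap in the *Ror2* mutants but did not pass limma, and the other 4 members overlapped. The family sum was 304, 227 and 224 in controls and 982, 528 and 497 in mutants, a 2.66-fold difference of the means with no overlap. By limma 0 of the 6 members passed, beside 0.00582% of the 17182 genes tested called higher and 0% called lower. At an unadjusted p under 0.05 there were 2, beside 1744 of the 17182 genes. edgeR called 0, and DESeq2 called 2, *Serpina3f* and *Serpina3g*, beside 567 of 16511 genes called higher. The same 2 members did not overlap between the groups, beside 15.5% of all genes.

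*Serpina3g* was at 46.6, 44.2 and 55.6 normalized counts in the P5 *Ror2* controls and at 315, 184 and 183 in the mutants. The controls were close together, and the mutants lay well above them. The log2 fold change was 2.16 (SE 0.29, limma adjusted p = 0.37), in a table where all genes tested had a median of 0.18.
*Serpina3f* was at 5.60, 13.1 and 9.92 in controls and at 92.0, 55.4 and 119 in mutants (log2 fold change 3.09, SE 0.46, limma adjusted p = 0.385). Its share of the reads on the family ran from 1.84% (95% Wilson interval 0.846% to 3.96%) to 5.75% (3.39% to 9.59%) in controls and from 9.36% (7.66% to 11.4%) to 23.99% (20.5% to 27.8%) in mutants.

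*Serpina3n* was at 151, 120.5 and 91.3 in controls and at 403, 173 and 107 in mutants, and *Serpina3c* at 89.5, 44.2 and 57.6 and at 147, 97.1 and 72.5. In both, mutant replicate 3 lay within the control range, with log2 fold changes of 0.72 (SE 0.55) and 0.72 (SE 0.41) and a limma adjusted p of 0.562 for each. *Serpina3h* (9.33, 1.00 and 7.94 against 23.3, 14.6 and 7.63) and *Serpina3i* (1.87, 4.02 and 1.98 against 2.11, 4.18 and 7.63) also overlapped. Without control replicate 1, the lung with missing reads, the log2 fold change was 2.79 for *Serpina3f* and 2.13 for *Serpina3g* (limma adjusted p = 0.104 for both, from 0.104 to 0.71 over the fits without 1 lung), and between 0.42 and 1.81 for the other 4, with 0 of 6 passing. The log2 ratio of the family means was 1.41 with that lung and 1.57 without it.

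**Figure D3:**
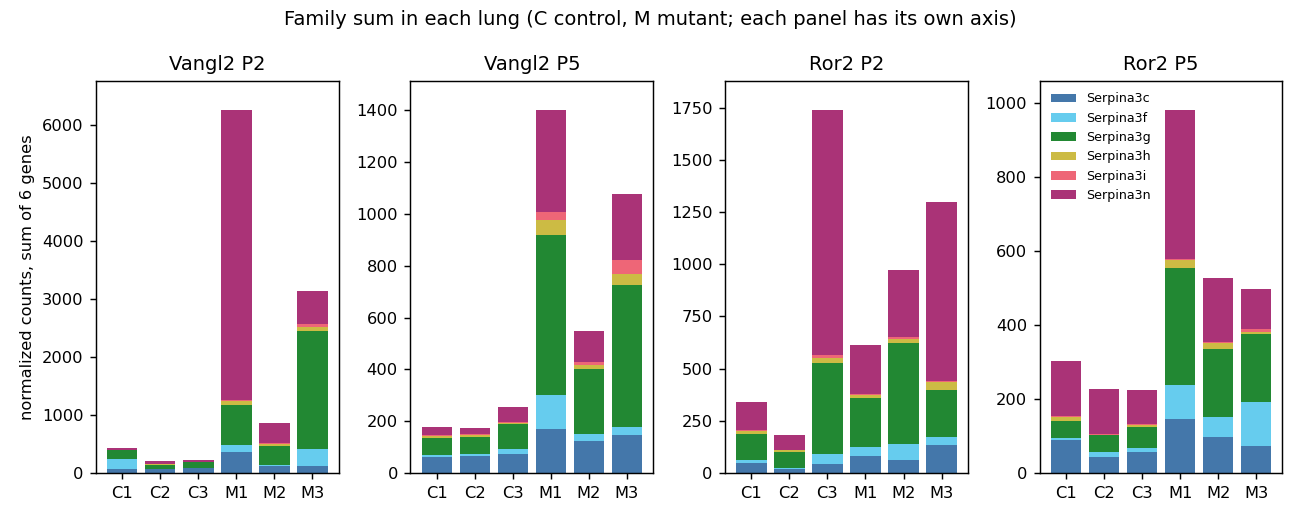
Normalized counts of the 6 Serpina3 genes stacked for each lung, controls C1 to C3 and mutants M1 to M3, with a separate linear axis for each comparison. Serpina3n fills more of the bar than the other genes together in mutant replicate 1 of Vangl2 P2, control replicate 3 and mutant replicate 3 of Ror2 P2 and control replicate 2 of Ror2 P5, and Serpina3g does in mutant replicate 3 of Vangl2 P2, mutant replicate 3 of Vangl2 P5 and, at 50.05%, mutant replicate 2 of Ror2 P2.

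The changes in the *Vangl2* and *Ror2* mutants were set against each other within an age, each mutant with its own controls. By limma over 12 lungs 0 of 6 members differed at either age, and the same was true of all genes (0% of 17137 genes at P2 and 0% of 16890 at P5, with 788 and 580 at an unadjusted p under 0.05). At P2, 2 members had an unadjusted p under 0.05. *Serpina3n* changed by 3.91 more on the log2 scale in *Vangl2* than in *Ror2* mutants (SE 1.5, limma adjusted p = 0.946) and *Serpina3h* by 2.35 more (SE 0.77, limma adjusted p = 0.946). At P5, the 2 were *Serpina3i*, at 2.41 more (SE 0.87, limma adjusted p = 0.75), and *Serpina3n*, at 1.99 more (SE 0.85, limma adjusted p = 0.75). *Serpina3f* was the member whose estimate was larger in *Ror2* than in *Vangl2* mutants at P5 (difference -0.76, SE 0.95, limma adjusted p = 0.779).
Between the ages, 0 of 6 members differed in either mutant by limma, with 0 at an unadjusted p under 0.05, beside 0% of 17068 and 16992 genes (1442 and 1041 unadjusted). The widest gap was that of *Serpina3n* in *Vangl2* mutants, with a difference of -2.03 on the log2 scale, P5 minus P2 (SE 1.13, limma adjusted p = 0.621).

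Within groups, the members did not vary as 1 unit. Over the 24 lungs, with the mean of each group of 3 removed on the log2 scale, Pearson's r was 0.76 between *Serpina3c* and *Serpina3n*, 0.71 between *Serpina3f* and *Serpina3g* and 0.57 between *Serpina3g* and *Serpina3i*. These were the 3 pairs with the highest upstream identity, in another order, among the 10 pairs with a window. Identity was 76.8% over 164 aligned bases for *Serpina3f* and *Serpina3g* and 78.2% over 188 for *Serpina3g* and *Serpina3i*. For *Serpina3f* and *Serpina3i* it was 75.6% over 238, so the order of these pairs depends on the *Serpina3g* window. The remaining 7 pairs ran from 0.04 (Serpina3c and Serpina3i) to 0.49 (Serpina3g and Serpina3n), and *Serpina3f* and *Serpina3i*, at 75.6% identity, had 0.08. *Serpina3h*, for which no window was given, had 0.58 with *Serpina3c*, 0.57 with *Serpina3n* and 0.51 with *Serpina3g*. The pairs share genes, lungs and size factors, *Serpina3f*, *Serpina3g* and *Serpina3i* also share stretches of sequence on which reads can be split, and the values are a description with no test.

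**Figure D4:**
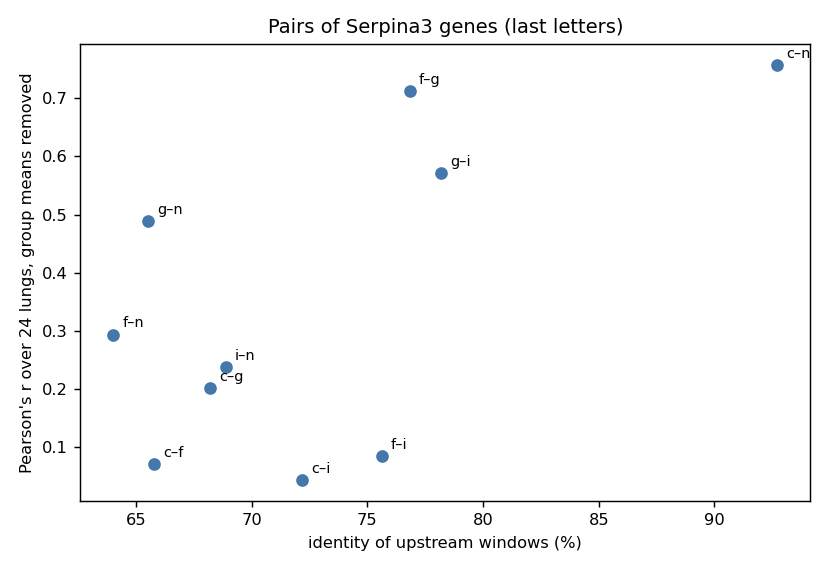
Each point is 1 of the 10 pairs of Serpina3 genes with an upstream window, named by their last letters, with the identity of the 2 windows in percent on the x axis and Pearson's r of their log2 levels over 24 lungs, after removal of group means, on the y axis. The pair of Serpina3c and Serpina3n has the highest identity, 92.7%, and the highest r, 0.76.

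Among 16724 genes tested in all 4 tables, the 5 whose levels ran most like *Serpina3n* over the 24 lungs, with the mean of each table of 6 removed, included *Klf5*, an epithelial transcription factor (r = 0.88), *AA986860* (0.88), *Il6ra*, the interleukin 6 receptor (0.88), and *Fth1*, ferritin heavy chain (0.88). The other members ranked from 48 (Serpina3h, 0.83) and 55 (Serpina3c, 0.82) to 1184 (Serpina3f, 0.58). For the sum of the 6 genes the closest were *Fth1* (0.92), *Lrg1* (0.92), *Lcn2* (0.91) and *Orm1* (0.88), which encodes the plasma protein orosomucoid, with *Il18rap* (0.87). *Lrg1* and *Lcn2* encode secreted proteins of inflammation and neutrophil granules. The lungs of a group share their genotype and tables share a normalization, so these values are given without a p.

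The other genes of the pathway are given from lists. At an unadjusted limma p under 0.05 there were 3921 of 17448 genes in the *Vangl2* P2 comparison and 3270 of 17410 at P5. In the *Ror2* comparisons there were 3380 of 17541 and 1744 of 17182. In *Vangl2* mutants DESeq2 called 1081 genes higher and 920 lower of 15391 at P2, and 842 and 435 of 14930 at P5. These counts are the background of every list below. Of 18 acute phase secreted proteins tested (beside the serpins), 10 rose at P2 and 8 at P5 in *Vangl2* mutants by limma, with medians of 2.10 and 1.58 on the log2 scale against 0.00 for all genes. *Saa3*, serum amyloid A3, rose from 29.7 to 59.7 normalized counts in P2 controls to 1033 to 5774 in mutants (log2 fold change 5.89, SE 0.58, limma adjusted p = 0.0248). *Cfb*, complement factor B, rose in both ages, with log2 fold changes of 2.38 (SE 0.16) and 2.11 (SE 0.24), and so did *Itih4*, at 2.42 (SE 0.46) and 3.31 (SE 0.34). *Il1rn*, the interleukin 1 receptor antagonist, which is also in the cytokine list, rose at P5 (2.04, SE 0.20, limma adjusted p = 0.0141) and had 1.65 (SE 0.37, adjusted p = 0.0541) at P2. In *Ror2* mutants 0 of 19 passed at P2 and 0 of 17 at P5 by limma, with 6 at an unadjusted p under 0.05 at each age, edgeR calling 0 and DESeq2 3 and 4, and medians of 0.70 and 1.31.
The list summed to 16284 to 16776 normalized counts in P2 *Vangl2* controls and to 28301 to 75590 in mutants, where its order was that of the family sum. At P5 it summed to 14547 to 17724 in controls and, in mutant replicates 1 to 3, to 36494, 41897 and 33094, so that replicate 2 was highest for the list and lowest for the family.

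Of 29 genes of cytokine and STAT3 signalling tested, 0 passed at P2 and 1, *Il1rn*, at P5 in *Vangl2* mutants by limma, with 18 and 13 at an unadjusted p under 0.05, edgeR calling 2 and 1 and DESeq2 10 and 9, and with 10 under the replicate block at P5. *Osmr*, a receptor for oncostatin M, had a log2 fold change of 1.30 (SE 0.32, limma adjusted p = 0.0701) at P2 and 0.81 (SE 0.17, limma adjusted p = 0.0823, blocked adjusted p = 0.0337) at P5. *Il1b*, interleukin 1 beta, had 1.62 (SE 0.89, limma adjusted p = 0.324) and 1.53 (SE 0.30, limma adjusted p = 0.0754, blocked adjusted p = 0.0126). Of 10 genes that respond to glucocorticoids, 0 passed at P2 (8 unadjusted, edgeR 0, DESeq2 4) and 1 at P5, *Zbtb16* (log2 fold change 2.84, SE 0.21, limma adjusted p = 0.0118), with 5 unadjusted, edgeR calling 1, DESeq2 5 and 3 under the block. Of 24 interferon response genes 0 passed at either age by limma (5 and 10 unadjusted, edgeR 0, DESeq2 2 lower at P2 and 2 higher and 1 lower at P5, and 6 higher with the block at P5), with medians of -0.71 at P2 and 0.70 at P5.

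Serine proteases of leukocyte granules include targets of such serpins, and other targets such as cathepsins of the cysteine class were not listed. Of 15 tested at P2 and 13 at P5 in *Vangl2* mutants, 0 were called by limma (2 and 1 unadjusted, edgeR 0, DESeq2 1 and 0), and *Prtn3*, proteinase 3 of neutrophils, had the lowest p, with log2 fold changes of 1.5 (SE 0.33, limma adjusted p = 0.0522) and 1.70 (SE 0.49, adjusted p = 0.134). Most neighbouring clade A serpins had few reads. Of 17 in the tables, 5 were tested in each *Vangl2* comparison and 0 passed by limma (2 unadjusted at each age, edgeR 0, DESeq2 0 and 1). With the block 1 was called higher at P5, *Serpina10* (log2 fold change 2.01, SE 0.42, limma adjusted p = 0.0823, blocked adjusted p = 0.0364). *Serpina3a*, *Serpina3j* and *Serpina3k* reached at most 4.47 normalized counts in any lung, *Serpina3b* 5.25 and *Serpina3m* 19.1. Of 16 serpins from other clades, *Serpind1*, heparin cofactor II, rose at P2 (log2 fold change 1.53, SE 0.31, limma adjusted p = 0.0406) and 0 passed at P5 (4 unadjusted, edgeR 0, DESeq2 2, and 1 higher and 1 lower with the block). The unadjusted counts of these lists stand beside 3921 of 17448 genes at P2 and 3270 of 17410 at P5.

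Markers of some other cell types were also higher in the *Vangl2* mutants. Of 11 neutrophil markers tested, 9 rose at P2 and 5 at P5 by limma (11 of 11 at P5 with the block), and none of the 11 was at 0. Their sum was 4133 to 6385 normalized counts in P2 controls and 12308 to 16349 in mutants, and 4047 to 5730.3 and 12618 to 27848 at P5. *Retnlg*, a resistin-like gene of neutrophils, had log2 fold changes of 1.43 (SE 0.27, limma adjusted p = 0.0339) and 2.68 (SE 0.33, adjusted p = 0.0202). In the P5 *Ror2* comparison the neutrophil sums overlapped, at 1984 to 2710.1 in controls and 2447 to 5229 in mutants. By limma 0 of 11 were called (0 unadjusted, edgeR 0, DESeq2 0). *Serpina3f* and *Serpina3g* did not overlap there, beside 15.5% of all genes higher without overlap, and neither was called by limma or edgeR. Among the P2 *Vangl2* mutants the neutrophil sum was lowest in replicate 1, where *Serpina3n*, *Serpina3c* and the family sum were highest, and highest in replicate 3, where *Serpina3f*, *Serpina3g*, *Serpina3h* and *Serpina3i* were highest. At P5 it was 12618, 19459 and 27848 in mutant replicates 1 to 3, beside family sums of 1401, 547 and 1076.
Of 9 macrophage markers 1 rose at P2 and 0 at P5 (9 unadjusted, edgeR 0, DESeq2 7, 6 with the block), with sums of 30401 to 36738 in controls and 39799 to 46632 in mutants at P2, and of 16813 to 27154 and 39511 to 51416 at P5. Club cell markers summed to 129644 to 154201 in P2 controls and 235032 to 268260 in mutants, with 0 of 7 called by limma at either age (4 and 7 unadjusted, edgeR 0, DESeq2 3 and 7) and 7 with the block at P5. At P2, 3 of 10 type II cell markers and 1 of 8 type I cell markers rose by limma (DESeq2 5 and 2). Of 12 fibroblast markers 2 fell by limma, *Dpt* and *Col1a1*, but the list went both ways. Its median was -0.13 at P2, DESeq2 called 2 higher and 4 lower, and *Inmt* had 3.60 (SE 0.80, limma adjusted p = 0.0533). At P5 0 of each passed by limma (4, 1 and 6 unadjusted, edgeR 0). DESeq2 called 3 type II and 1 type I markers higher at P5, and fibroblast markers 1 higher and 3 lower. Lymphocyte, mast cell and basophil, endothelial and hepatocyte markers had 0 calls by limma in both *Vangl2* comparisons (0 to 5 of a list unadjusted, edgeR 0, DESeq2 0 to 2). In *Vangl2* P5, lymphocyte markers summed to 8807 in mutant replicate 3 against 654 to 1414 in the other 5 lungs, and hepatocyte markers to 11404 in control replicate 3 against 4303 to 6931, a lung in which the clade A neighbours summed to 359.8 against 15.5 to 138. Among the liver genes only 7 of 12 were tested at P2, and the sum overlapped between P2 groups, at 5369 to 6618 and 5618 to 7005. In the *Ror2* comparisons 0 genes of these lists passed by limma (at most 9 of a list unadjusted, edgeR 0, DESeq2 at most 4), although the club cell sums did not overlap at P5, at 70889 to 78060 in controls and 127082 to 243995 in mutants. P5 *Ror2* control replicate 1 had an endothelial sum of 40033, against 84911 and 80505 in the other controls, and a hepatocyte sum of 38.2, against 3655 and 3536. The P5 *Ror2* counts, sums and medians of every list include that lung with missing reads, and no list values without it are given. The part of these cells in the family's change was not tested.

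**Figure D5:**
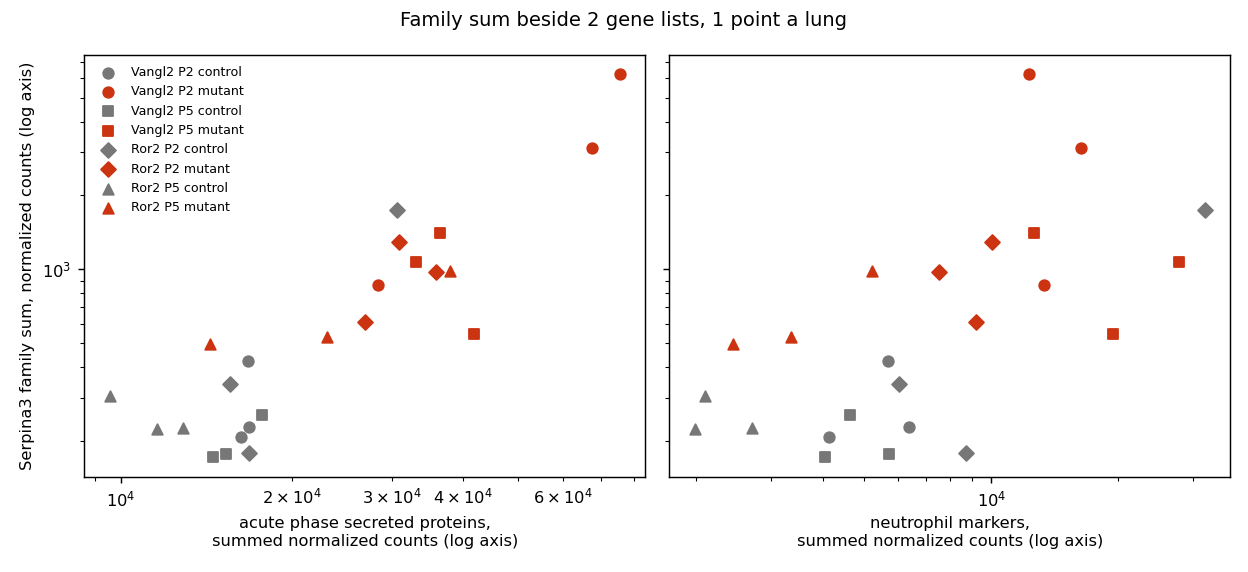
Sum of the 6 Serpina3 genes in each of the 24 lungs against the summed acute phase secreted proteins (left) and neutrophil markers (right), all in normalized counts on log axes, with grey for controls, red for mutants and a shape for each comparison. The P2 Ror2 control with a family sum of 1738 has 30643 for the acute phase list and 32088 for neutrophil markers, and tables were normalized separately, so that distances between shapes carry that difference too.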

How the data were processed

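RNA from the left lobe was purified with TRIzol and RNeasy and sequenced by the authors on Illumina HiSeq instruments. The deposited signal values, per the authors normalized counts, are reads per gene over a size factor (DESeq2, mm10, from the submitters' processing notes), 1 table for each mutant and age. The aligner, counter and annotation are not given in the sources used here. The tables also hold the authors' log2 fold changes, standard errors, statistics and p-values, which were not used.

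Since reads were already scaled, limma (version 3.58.1, R 4.3.3) on log2(normalized count + 1) replaced the edgeR test planned for counts. Genes with at least 1 in 3 of the 6 lungs were tested, mutant over control within each table, with an empirical Bayes trend and Benjamini-Hochberg adjustment over all tested genes at 0.05. Fold changes are on that log2 scale, which understates changes of low genes. Differences between comparisons were contrasts over 12 lungs. Whole reads were recovered from the steps between values (100% of values within 0.02 of a whole read) and used for edgeR (version 4.0.16) and DESeq2 (version 1.42.0) as alternatives. For 3 P5 control lungs, in which the step was close to 1, this says little. The scripts were tested on simulated data.

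Lungs of the same replicate number deviated together at P5 in the Vangl2 table (r from 0.2405 to 0.3841 for the 3 pairs), so the blocked fit is printed there. That choice rests on these values, since the labels give no pairing. The labels do not say whether lungs are separate animals, so p-values measure only the spread between these samples. No 2 lungs held identical values (0 pairs). The members and gene lists were chosen with earlier results of these data known. Named are all members, Vangl2 and Ror2, from each list at most the 4 genes with the lowest limma p in a Vangl2 comparison, the 5 genes most like Serpina3n (1 of which is not reported here) or the family sum, and, chosen after values were seen, the remaining Serpina3 genes with their reads. Sequences came from RefSeq (GRCm38.p6, 5 of 6 members matched) and GENCODE transcripts of GRCm38, aligned in pairs. Wilson intervals cover counting error only. Other pseudocounts, filters, TMM scaling, a block, a 12-lung fit and each lung left out were tried.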

Additional observations from a re-analysis of the deposited data

How the results depend on the processing

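The counts of members called moved with the test and with single lungs. For Vangl2 P2, against 3 members, the 12-lung fit called 0, DESeq2 on recovered reads 5, and the fits without 1 lung from 0 to 3. For Vangl2 P5, against 1, DESeq2 called 6 and the fits without 1 lung 0 or 1. For Ror2 P5, against 0, DESeq2 called 2. The family sum of Ror2 P2 (log2 ratio 0.35) ran from -0.11 to 1.88 without 1 lung. Serpina3h (0.43) and Serpina3i (0.93) in Ror2 P2 ran from -0.00286 to 0.82 and from -0.0571 to 1.90, below 0 without control replicate 2. The cause was not tested. Other pseudocounts, filters and TMM scaling changed no count of members. Of the fold changes of single members, 317 of the alternative values kept their direction and side of the threshold, 22 lost and 14 gained the call and 2 turned.

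The replicate block called 5 members in Vangl2 P5, where lungs of the same number deviated together, against 1. The labels do not pair lungs by number, and this pairing was inferred from the same values. In the other comparisons same-number r ran from -0.0525 to 0.2065. There the block called 4 in Vangl2 P2, which adds Serpina3i, beside 358 of 17448 genes called higher, and 0 in both Ror2 comparisons. Over all genes, 93 higher and 5 lower in Vangl2 P5 became 952 and 606 with the block and 842 and 435 by DESeq2. In Vangl2 P2, 262 and 364 became 1081 and 920 by DESeq2. In Ror2 P2, 0 and 0 became 473 and 321 by DESeq2 and 437 and 422 without mutant replicate 2, and in Ror2 P5, 1 and 0 became 567 and 406 by DESeq2. Without 1 lung, the calls higher ran from 1 to 1091 in Vangl2 P2 and from 0 to 47 in Vangl2 P5.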
